A study of Mus musculus with 8 samples.

Results

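The untreated transcriptomes of Eμ-Myc lymphoma lines #1.1 and #1.2 were compared. All libraries labelled as treated with the DMSO vehicle were taken, 2 of each line and 4 of the 8 libraries of the series, and 12413 of 43629 genes passed the expression filter and were tested. Both lines are mouse cell lines of the C57BL/6 strain and carry the Eμ-Myc transgene, in which the enhancer of the immunoglobulin heavy chain genes drives Myc in B lineage cells. Early passage cells were kept for 2 h in DMSO, and the other 4 libraries of the series were made from the same lines after 2 h in 250 nM JQ1, an inhibitor of BET bromodomain proteins. Each group is 1 line, so a difference between the lines is a difference between these tumours or cultures and not of a genotype. Whether the 2 libraries of a line came from separate cultures is not stated in the labels, and all p-values therefore rest on a spread between libraries that could be technical only.

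B cell precursors rearrange their antigen receptor genes in order. The recombinase encoded by Rag1 and Rag2 first joins a heavy chain variable (V) gene, and the heavy chain then pairs with a surrogate light chain in the pre-B cell receptor. A light chain follows, usually kappa first and lambda when kappa joins fail or the receptor is edited, so a clone of B cells is marked by the V genes that it transcribes. Eμ-Myc lymphomas arise from pre-B to immature B cells, and they often lose the ARF and p53 pathway or lean on anti-apoptotic proteins of the BCL2 family.

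The 4 libraries held 10347453 to 13049877 reads in genes, and 17278 to 17731 genes had at least 1 read. Levels are given as CPM, the reads of a gene scaled to a common library size, and 3 reads in a library stand for 0.228 to 0.287 CPM. All 8 markers of B lineage cells passed the filter, with summed levels of 3247 to 3310 CPM in line 1.1 and 3453 to 3576 CPM in line 1.2. None of the 7 T cell, 4 NK cell, 6 myeloid and 4 erythroid markers passed, and of 4 stromal and endothelial markers only Cdh5 did, at 1.15 to 1.53 CPM. The Y-linked genes Ddx3y, Eif2s3y, Kdm5d and Uty were read in all 4 libraries, while Xist had 2 reads in line 1.1 and 4 in line 1.2. In 1 library, replicate 2 of line 1.1, Gm42418, a gene model that holds ribosomal RNA sequence, stood at 977 CPM against 341 to 383 CPM in the other 3, and the reads of that line's replicates differed more from each other (3.82 chi-square per degree of freedom) than those of line 1.2 (1.73). Between lines this value was 6.53 to 7.36.

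The lines were closely similar, with a limited set of large differences. By edgeR's quasi-likelihood test with a Benjamini-Hochberg adjusted p under 0.05, 840 of 12413 genes (6.77%) differed, 446 of them higher (3.59%) and 394 lower (3.17%) in line 1.2. These are the genes referred to as called. Most differences were small. The median absolute log2 difference of called genes was 0.35, against 0.11 over all genes tested, and 572 of the 840 (68.1%) lay under 1.5-fold. At least 2-fold differences numbered 150, of which 91 were higher and 59 lower in line 1.2. In 838 of the 840 called genes, both libraries of one line lay above both of the other, and the 2 exceptions were the nuclear RNA Malat1 and Gm42418. Such separation also held for 5811 of all 12413 genes (46.8%). The number of calls rose when either library of line 1.1 was left out and fell when either library of line 1.2 was. Such a fit takes its spread from the groups that keep both libraries, and the libraries of line 1.1 differed more from each other. A call lost or gained there therefore need not depend on the values of the library left out. DESeq2 called 303 genes, and a fit of the 4 DMSO libraries alone called 445.

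**Figure D1:**
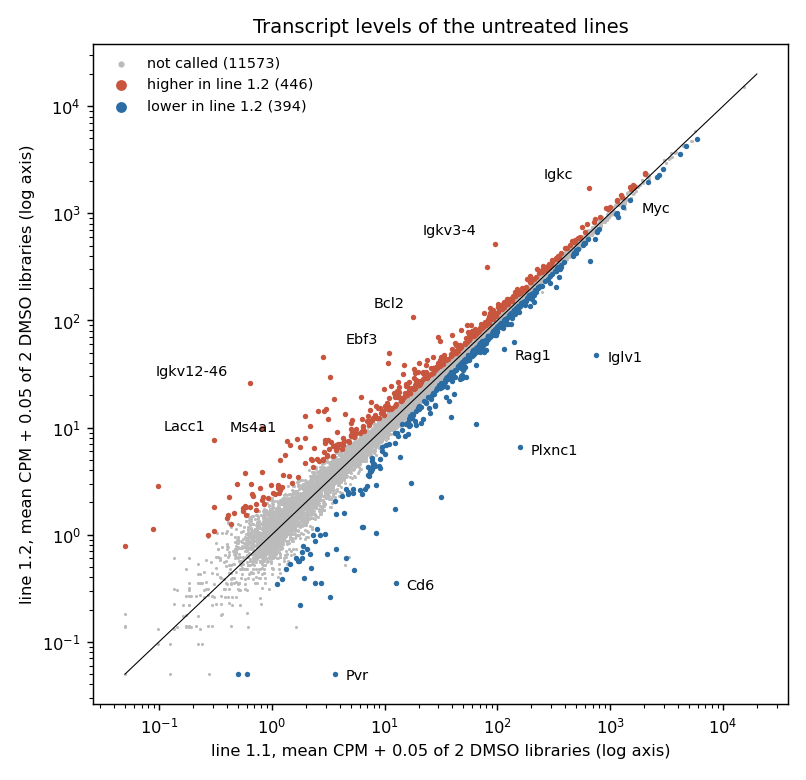
Each point is 1 of the 12413 genes tested, with the mean CPM of the 2 DMSO libraries of line 1.1 on the x axis and of line 1.2 on the y axis, both logarithmic after adding 0.05. Orange points are the 446 genes called higher and blue points the 394 called lower in line 1.2, and most of both lie close to the line of equal levels.

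Light chain transcripts separated the lines. Line 1.1 transcribed mainly lambda V genes and line 1.2 mainly kappa V genes, while both transcribed the same heavy chain V gene. Iglv1, a lambda V gene (chromosome 16, 19085017 to 19085500), had 819 and 689 CPM in the libraries of line 1.1 and 47.6 and 47.5 CPM in those of line 1.2. Both libraries of line 1.1 were far above both of line 1.2, a 15.9-fold difference (log2 difference of line 1.2 minus line 1.1, -3.99 ± 0.070, SE; edgeR adjusted p = 8.56e-23). Iglv2, another V gene of the locus, had 33.2 and 29.4 CPM in line 1.1 against 1.99 and 2.40 CPM in line 1.2 (-3.83 ± 0.16). The lambda constant gene Iglc2 ran the other way, from 27.9 and 31.7 CPM in line 1.1 to 72.3 and 68.0 CPM in line 1.2 (1.24 ± 0.075), and so did Iglv3 (0.77 ± 0.19), whose call was lost with DESeq2 and without any one of line 1.1 replicate 2, line 1.2 replicate 1 and line 1.2 replicate 2. Of the 4 lambda genes in the file, all of them tested, 2 were thus lower and 2 higher in line 1.2 (100% called, against 6.77% of all genes). Iglc2 was the only constant gene among them, so no other lambda constant gene could be compared.

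Many kappa genes were higher in line 1.2. Of 109 in the file, 23 were tested, and 13 of these were called higher, 0 lower and 10 neither (56.5% called, against 6.77% of all genes). A gene read in line 1.2 alone could pass the filter, and similar V genes may share reads. The 13 calls therefore cannot be counted as independent rises. Of the 23, 18 had a log2 difference above 0. The median was 1.30, against 0.003 over all genes tested. It moved to 2.04 with a filter of at least 5 CPM in at least 2 libraries (10 higher) and to 0.41 with no filter on low counts (13 higher). Igkc, the kappa constant gene (chromosome 6, 70726435 to 70726966), had 626 and 670 CPM in line 1.1 and 1782 and 1669 CPM in line 1.2 (1.41 ± 0.048, edgeR adjusted p = 6.56e-17). Igkv3-4 (chromosome 6, 70671788 to 70672377) had 102 and 88.8 CPM in line 1.1 and 512 and 516 CPM in line 1.2, 5.36-fold higher (2.42 ± 0.057). Igkv12-46 was close to absent in line 1.1, at 0.608 and 0.574 CPM (8 and 6 reads), and stood at 25.8 and 26.5 CPM in line 1.2 (5.44 ± 0.19). No library of line 1.1 reached the level of line 1.2 in any of these genes. Such separation held for 838 of all 840 called genes and 46.8% of all genes tested.

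Igkv3-3 (4.04 ± 0.14), Igkv3-5 (3.23 ± 0.14), Igkv3-9 (2.68 ± 0.20), Igkv3-10 (2.49 ± 0.17) and Igkv3-12 (2.37 ± 0.16) were higher in line 1.2 as well, at 12.8 to 49.0 CPM there against 1.43 to 4.03 CPM in line 1.1. These V genes resemble each other, so part of their reads may belong to a near-identical copy. The last 100 bases of each transcript, from GENCODE mouse release M21 on GRCm38, are shown because they hold the end of the V segment next to the join and show how alike the copies are. Capitals mark bases that differ from the first gene of each group.
Igkv3-4: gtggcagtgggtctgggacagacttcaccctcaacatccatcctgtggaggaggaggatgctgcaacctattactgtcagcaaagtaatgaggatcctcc
Igkv3-3: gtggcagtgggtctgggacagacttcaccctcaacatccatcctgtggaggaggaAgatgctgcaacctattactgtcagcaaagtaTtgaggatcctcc
Igkv3-5: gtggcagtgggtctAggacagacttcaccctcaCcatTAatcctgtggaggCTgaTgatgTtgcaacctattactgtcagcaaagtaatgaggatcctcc
Igkv12-46: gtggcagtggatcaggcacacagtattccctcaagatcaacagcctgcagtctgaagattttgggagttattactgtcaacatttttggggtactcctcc
Igkv12-44: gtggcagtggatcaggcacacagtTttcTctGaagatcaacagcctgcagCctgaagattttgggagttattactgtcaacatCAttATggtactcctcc
Iglv1: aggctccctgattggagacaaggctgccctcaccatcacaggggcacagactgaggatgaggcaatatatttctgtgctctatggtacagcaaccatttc
Iglv2: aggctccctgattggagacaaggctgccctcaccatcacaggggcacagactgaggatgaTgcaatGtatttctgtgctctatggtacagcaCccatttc
Igkv3-3 differed from Igkv3-4 at 2 of these 100 bases and Igkv3-5 at 8. Igkv12-44, the relative of Igkv12-46 shown, differed at 8, and Iglv2 differed from Iglv1 at 3 and shared a run of 104 bases with it along the whole transcript. The other members of the Igkv3 family in the table were 86% to 95% identical to Igkv3-4 here. How many reads were shared or lost between copies was not tested.

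As shares of reads, lambda V genes made up 85.6% (exact 95% binomial interval 85.0 to 86.2) and 85.1% (84.3 to 85.8) of light chain V reads in the libraries of line 1.1, and 7.43% (6.87 to 8.01) and 7.48% (6.95 to 8.04) in those of line 1.2. These intervals cover counting error only. Within the kappa locus the leading gene was the same, with Igkv3-4 at 71.0% and 70.1% of kappa V reads in line 1.1 and 72.8% and 73.2% in line 1.2. Igkv12-46 rose from 0.422% and 0.452% of kappa V reads to 3.67% and 3.76%. In the heavy chain locus none of the 8 genes tested was called (2 were higher without line 1.1 replicate 2). Ighv10-1 held 82.8% and 82.6% of heavy chain V reads in line 1.1 and 82.4% and 82.1% in line 1.2, and Ighv1-28 held 11.5% to 12.4% in all 4 libraries. Ighm, the μ constant gene, had 1405 and 1444 CPM in line 1.1 and 1574 and 1525 CPM in line 1.2 (0.12 ± 0.041, edgeR adjusted p = 0.079). It missed the threshold, but passed it with library totals as scaling (adjusted p = 0.0463), limma-voom, no filter on low counts or without line 1.1 replicate 2. Ighd, the δ constant gene of more mature cells, stayed at 7.94 to 11.6 CPM (adjusted p = 0.202).

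**Figure D2:**
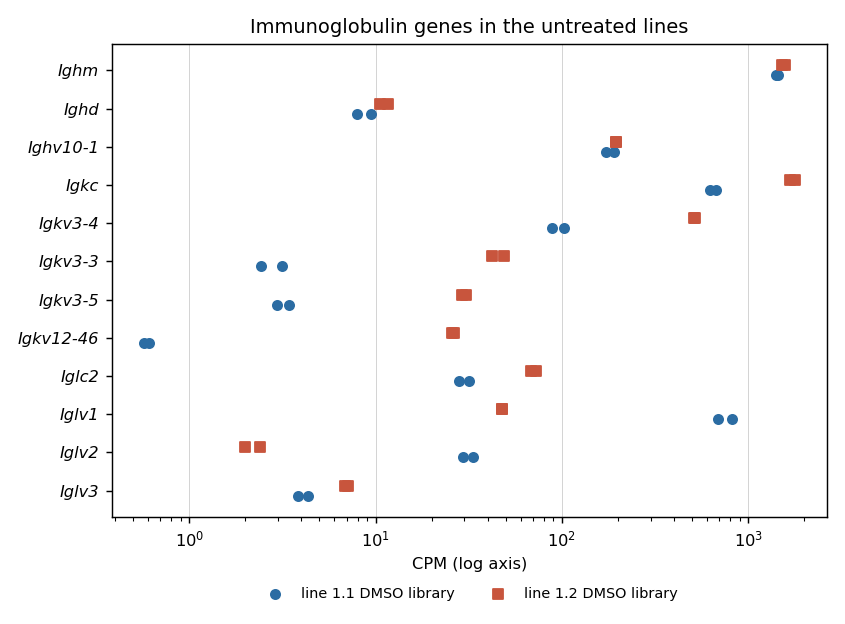
Each point is 1 DMSO library, with CPM on a logarithmic x axis and 12 immunoglobulin genes in rows; circles are line 1.1 and squares line 1.2. The heavy chain genes lie close together in both lines, the kappa genes shown lie to the right in line 1.2, and Iglv1 and Iglv2 lie to the right in line 1.1.

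Genes of early B cell development divided. Of 11 tested, 3 were higher and 4 lower in line 1.2 (63.6%, against 6.77% of all genes), with a median of -0.11. Rag1 (chromosome 2, 101638282 to 101649501) had 114 and 116 CPM in line 1.1 and 54.8 and 53.1 CPM in line 1.2, a fall by 1.09 ± 0.059 on the log2 scale (edgeR adjusted p = 1.34e-12). Both libraries of line 1.1 were above both of line 1.2, a separation that also held for 46.8% of all genes tested. Il7r, the interleukin-7 receptor of B cell precursors, had 115 and 124 CPM in line 1.1 and 88.8 and 95.3 CPM in line 1.2 (-0.38 ± 0.059, adjusted p = 0.000125 by edgeR). Rag2 (-0.37 ± 0.11, edgeR adjusted p = 0.039) was called with all libraries, but not with DESeq2, in the 4 DMSO libraries alone, or without any one of line 1.1 replicate 2, line 1.2 replicate 1 and line 1.2 replicate 2. Cd93, a surface protein of immature B cells, was higher, from 42.9 and 43.0 CPM to 59.7 and 60.9 CPM (0.49 ± 0.082). Flt3, a growth factor receptor gene at 1.63 to 3.79 CPM, was higher too (1.04 ± 0.28). Its call changed in 7 of 14 alternatives. Vpreb3, a marker of pro-B and pre-B cells, was called higher as well (0.22). It had 218.4 and 200.9 CPM in line 1.1 and 243.9 and 246.5 CPM in line 1.2. Spn, which encodes CD43, was lower (-0.32 ± 0.067), a call lost with DESeq2 and without line 1.2 replicate 2. Vpreb1 and Igll1, parts of the surrogate light chain, and the terminal transferase gene Dntt were at or under 0.580 CPM in all 4 libraries and were not tested. Leaving out line 1.1 replicate 2 turned the median of this list to 0.02. Without line 1.2 replicate 1 the list had 1 higher and 3 lower genes, and without line 1.2 replicate 2 it had 1 and 2.

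Of 27 transcription factors of the B lineage, 3 were higher and 2 lower in line 1.2 (18.5%, against 6.77% of all genes), with a median of -0.004. Pax5, which holds B cell identity, had 100 and 110 CPM in line 1.1 and 103 and 101 CPM in line 1.2 (adjusted p = 0.765 by edgeR), and Ebf1 (-0.01, adjusted p = 0.966) was not called either. Myb was higher (0.24 ± 0.053) and Tcf3, which encodes the E2A proteins, lower (-0.18 ± 0.046). Both calls were lost without either library of line 1.2, and that of Tcf3 also in the 4 DMSO libraries alone. The inhibitors of E proteins moved apart: Id3 was lower (-0.37 ± 0.093), and Id2, at 0.835 to 3.48 CPM, was higher (1.44 ± 0.35). The calls of Id2 and Id3 were lost with DESeq2, that of Id2 also without line 1.1 replicate 1 or line 1.2 replicate 2, and that of Id3 without line 1.2 replicate 1. Without line 1.2 replicate 1 this list had 1 higher and 0 lower genes, without line 1.2 replicate 2 it had 0 and 1, and without line 1.1 replicate 1 it had 2 and 5. Ebf3, a paralog of Ebf1 that is not part of that list, had 10.1 and 11.9 CPM in line 1.1 and 50.2 and 49.6 CPM in line 1.2, 4.58-fold higher (2.19 ± 0.092, edgeR adjusted p = 5.76e-15).

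Of 34 genes of the B cell receptor, its coreceptors and proximal signalling, 9 were higher and 2 lower in line 1.2. The share called was 32.4%, against 6.77% of all genes, and the median was 0.09. Among the higher ones, beside Igkc, was the inhibitory coreceptor gene Cd22, with 135 and 142 CPM in line 1.1 and 170 and 165 CPM in line 1.2 (0.28 ± 0.053). Ms4a1, which encodes CD20, had 1.29 and 1.34 CPM in line 1.1 and 8.03 and 6.96 CPM in line 1.2, 5.66-fold higher (2.50 ± 0.25, edgeR adjusted p = 1.4e-07). The receptor's signalling chains Cd79a (adjusted p = 0.967) and Cd79b (adjusted p = 0.107) were not called. Cd38, an ectoenzyme on B cells, was lower (-0.40 ± 0.064). Either library of line 1.2 left out gave 6 higher genes in this list, and leaving out line 1.1 replicate 1 gave 5 lower ones.

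Cd6 was the largest fall among genes that averaged 5 CPM or more in the higher line. Cd6 (chromosome 19, 10789341 to 10830058), a scavenger receptor of T cells and some B cells, had 12.7 and 12.3 CPM in line 1.1 (167 and 129 reads) and 0.361 and 0.248 CPM in line 1.2 (4 and 3 reads). The difference was -5.32 ± 0.31 (edgeR adjusted p = 4.5e-12). The T cell markers Cd3d, Cd3e, Cd3g, Cd4, Cd8a, Trac and Trbc2 together reached at most 0.228 CPM in line 1.1 and 0.248 CPM in line 1.2, and 5 of the 7 had no read in any of the 4 libraries. In bulk RNA, fewer cells of a type and less RNA per cell cannot be told apart.

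Plxnc1, a plexin that receives semaphorin signals (chromosome 10, 94790866 to 94944835), was the next largest fall. It had 156 and 161 CPM in line 1.1 and 5.96 and 7.04 CPM in line 1.2, 24.2-fold lower (-4.60 ± 0.082, edgeR adjusted p = 8.56e-23). Of 20 tested genes of semaphorins, plexins, ephrins, netrins, slits and their receptors, 3 were lower and 1 higher. The other lower ones were Plxna1 (-0.31 ± 0.076) and Plxna3 (-0.78 ± 0.20), and the higher one was the netrin receptor gene Unc5a (0.67 ± 0.14). The calls of Plxna1 and Plxna3 were lost with DESeq2 and without line 1.1 replicate 2 or line 1.2 replicate 1, that of Plxna1 also in the 4 DMSO libraries alone and without line 1.2 replicate 2, and that of Unc5a without line 1.2 replicate 1. Without the last of these libraries the list had 0 higher and 1 lower genes.

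Other genes that were markedly lower in line 1.2 came from diverse roles. Bahcc1, a chromatin reader, had 64.2 ± 5.9 CPM in line 1.1 and 10.7 ± 0.20 CPM in line 1.2 (SD, n = 2; log2 difference -2.58 ± 0.093). Sox13, an HMG box transcription factor of lymphoid cells, had 16.6 and 18.0 CPM against 2.80 and 3.15 CPM (-2.53 ± 0.17), and Hadh, an enzyme of mitochondrial fatty acid oxidation, 11.4 and 13.1 CPM against 1.62 and 1.74 CPM (-2.85 ± 0.20). The rule that chose these genes required that their libraries not overlap between lines. The remaining large falls were Dock5 (-3.60), an exchange factor of RAC, the actin oxidoreductase gene Mical3 (-3.06), the kinase gene Cdk18 (-2.50), Lhfpl4 (-2.48), the intermediate filament gene Nes (-1.63), the ubiquitin ligase adaptor gene Klhl22 (-1.52), Fam129b (-1.39) and the cilium transport gene Ttc21b (-1.36). Among the large rises were Lacc1, an oxidoreductase known from macrophages (chromosome 14, 77024200 to 77036904), at 3 reads in each library of line 1.1 (0.228 and 0.287 CPM) and 7.31 and 7.78 CPM in line 1.2 (4.84 ± 0.34). Smim10l1 (2.35), Ly6k (2.30), the dynein light chain gene Dynlt3 (2.28) and Tceal9 (2.22) followed. All genes of this paragraph kept their calls under every alternative in which they were tested, the test against a 1.5-fold change included.

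**Figure D3:**
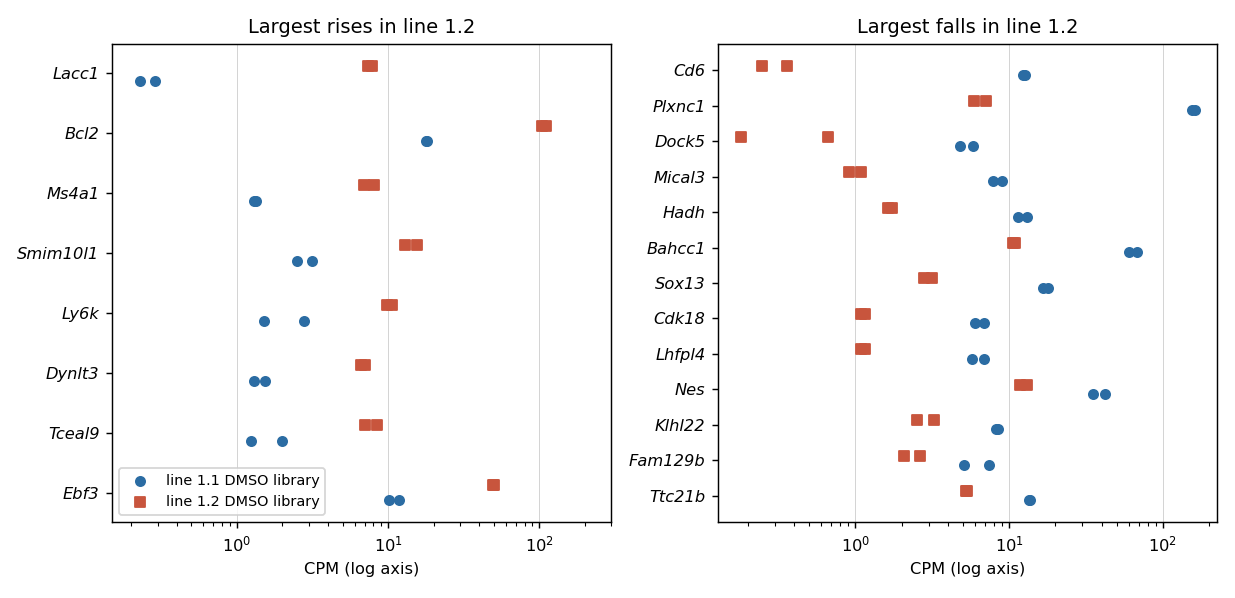
Each point is 1 DMSO library, with CPM on a logarithmic x axis; rows are the genes outside the immunoglobulin loci among the 15 largest rises (left) and 15 largest falls (right), circles are line 1.1 and squares line 1.2. In every row both libraries of one line lie apart from both of the other, which the rule that chose these genes required. The margin is widest for Lacc1 on the left and Cd6 on the right.

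Among regulators of cell death, Bcl2 stood out. Bcl2, the founding anti-apoptotic gene of its family (chromosome 1, 106538178 to 106714274), had 17.7 and 18.0 CPM in line 1.1 and 104 and 111 CPM in line 1.2. Both libraries of line 1.2 were 6.04-fold higher on average, a log2 difference of 2.59 ± 0.076 (edgeR adjusted p = 2.95e-18). Of 22 genes of the BCL2 family and caspases, 13.6% were called, against 6.77% of all genes. Only Bcl2 and Bmf, a pro-apoptotic member (9.34 and 8.70 against 16.3 and 14.2 CPM, 0.75 ± 0.13), were called higher. Bcl2l2, which encodes the anti-apoptotic BCL-W, was the only one called lower, from 1.82 and 1.63 CPM to 0.181 and 0.166 CPM (-3.25 ± 0.55, edgeR adjusted p = 0.000366). It rests on few reads, and in the JQ1 libraries its line difference was 0.03 (adjusted p = 0.989). Without line 1.1 replicate 1 the list had 3 lower genes. Mcl1, a further anti-apoptotic member, was at 248 to 266 CPM in all 4 libraries (adjusted p = 0.784), and the pro-apoptotic genes Bax (adjusted p = 0.935) and Bcl2l11 (0.22, adjusted p = 0.0605) missed the threshold too.

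In the p53 pathway, 5 of 35 tested genes were higher and 3 lower (22.9%, against 6.77% of all genes), with a median of 0.13. Trp53 had 230 and 234 CPM in line 1.1 and 208 and 206 CPM in line 1.2 (-0.17 ± 0.048, edgeR adjusted p = 0.0378). That call was lost with library totals as scaling, with DESeq2, in the 4 DMSO libraries alone and without either library of line 1.2. Among other genes of the pathway, Ccng2 (0.54 ± 0.081), Trp53inp1 (0.26 ± 0.050) and Ccng1 (0.23 ± 0.057) were higher. Mdm2 (0.15, edgeR adjusted p = 0.237) and Cdkn1a (edgeR adjusted p = 0.419) were not called. Trp53inp1 lost its call without line 1.2 replicate 2, and Ccng1 with DESeq2, in the 4 DMSO libraries alone and without either library of line 1.2. Plk3 was lower (-0.95 ± 0.24), except with DESeq2 or without line 1.2 replicate 2. The third lower gene was Plk2, named after its values were seen, with 10 reads in line 1.1 and 0 in line 1.2, at least 3.46-fold lower against a floor of 3 reads over the group. Without line 1.2 replicate 1 the list had 2 higher and 1 lower genes, without its replicate 2 it had 2 and 0, and in the 4 DMSO libraries alone 2 and 1. Without line 1.1 replicate 1 it had 7 and 3, with a median of 0.06. Cdkn2a, which encodes ARF and p16INK4a, and its neighbour Cdkn2b had no read in any of the 4 libraries, which allows at most 0.228 to 0.287 CPM per library. Mtap, the next gene of that region, was read at 118 to 135 CPM (-0.14, adjusted p = 0.102).

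Myc itself did not pass the test. It had 1428 and 1640 CPM in line 1.1 and 1422 and 1357 CPM in line 1.2 (-0.14 ± 0.051, edgeR adjusted p = 0.0944), and the counts sum the transgene and the endogenous gene. Without line 1.1 replicate 1, or with no filter on low counts, it was called lower (-0.25, adjusted p = 1.6e-05, and -0.14, adjusted p = 0.0074). Of 38 genes of the MYC and MAX network and MYC targets, 1 was higher and 3 lower in line 1.2. Calls made up 10.5% of this list, against 6.77% of all genes. The higher one was Mxd4, a MAX partner that opposes MYC (0.54 ± 0.084), and the lower ones were the nucleolar genes Nolc1 (-0.21) and Ncl (-0.16) and the transferrin receptor gene Tfrc (-0.22). Nolc1 lost its call without line 1.2 replicate 2, and Ncl and Tfrc lost theirs in the 4 DMSO libraries alone and without any one of line 1.1 replicate 1, line 1.2 replicate 1 and line 1.2 replicate 2. Left out in that order (line 1.1 replicate 1 and 2, line 1.2 replicate 1 and 2), the libraries gave 7, 12, 1 and 0 lower genes in this list, and the third gave 2 higher ones.

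Genes of DNA replication and mitosis were at nearly the same level, with 0 of 35 higher, 3 lower and a median of -0.01. Calls made up 8.57% of them, against 6.77% of all genes. Of 22 G1 cyclins, CDKs and their inhibitors, 2 were higher and 5 lower (31.8%, against 6.77% of all genes). Ccnd3, the D-type cyclin of B cell precursors, had 97.4 and 100 CPM in line 1.1 and 79.3 and 78.1 CPM in line 1.2 (-0.33 ± 0.055), and the inhibitor gene Cdkn1b, which encodes p27, had 66.7 and 75.2 against 87.6 and 97.0 CPM (0.39 ± 0.067). Neither gene overlapped between lines, as in 838 of all 840 called genes and 46.8% of all genes tested. The G1 list, without line 1.2 replicate 1, had 1 higher and 2 lower genes and the replication list 0 and 1. The counts without line 1.2 replicate 2 were 1 and 1 for G1 and 0 and 0 for replication. Without line 1.1 replicate 1 they were 1 and 5 for G1 and 1 and 5 for replication, and without line 1.1 replicate 2 they were 4 and 5 for G1 and 2 and 3 for replication.

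Antigen presentation was shifted towards line 1.2. Of 24 genes of MHC class I presentation, 8 were higher and 0 lower (33.3%, against 6.77% of all genes), with a median of 0.27. Nlrc5, the transactivator of class I genes, had 14.5 and 12.5 CPM in line 1.1 and 25.1 and 23.2 CPM in line 1.2 (0.82 ± 0.11, edgeR adjusted p = 2.23e-05). The heavy chain gene H2-D1 had 147 and 142 against 187 and 178 CPM (0.34 ± 0.049), H2-K1 had 123 and 129 against 156 and 160 CPM (0.33 ± 0.052), and the peptide transporter gene Tap1 had 21.8 ± 1.1 against 32.3 ± 0.78 CPM (SD, n = 2; 0.57 ± 0.090). In these 4 genes each library of line 1.2 was above each of line 1.1. Separation of the lines held for 838 of all 840 called genes and 46.8% of all genes tested. Without line 1.2 replicate 1 the list had 5 higher genes, and without line 1.1 replicate 2 it had 1 lower gene. Of 22 interferon response genes, 1 was higher and 0 lower (4.55%, against 6.77% of all genes), with a median of 0.11. The gene was the GTPase Ifi47, at 0.287 to 1.99 CPM. Its call was lost with DESeq2, in the 4 DMSO libraries alone and without line 1.1 replicate 2 or line 1.2 replicate 2. Without line 1.1 replicate 1 the interferon list had 2 higher and 1 lower genes.

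Of 12 genes of MHC class II presentation, 5 were higher and 0 lower (41.7%, against 6.77% of all genes), with a median of 0.31. Cd74, the invariant chain, had 19.9 and 16.3 CPM in line 1.1 and 35.7 and 34.2 CPM in line 1.2 (0.94 ± 0.093, edgeR adjusted p = 1.4e-07). H2-Ob, part of a peptide loading regulator of B cells, was higher (0.60 ± 0.090), and so was H2-Ab1 (0.44 ± 0.11). H2-Aa and H2-Eb1, the former named after its values were seen, were near the detection floor in line 1.1, at 0.152 to 0.287 CPM, and at 0.903 to 1.08 CPM in line 1.2. H2-Ab1 lost its call with DESeq2, in the 4 DMSO libraries alone and without line 1.1 replicate 1 or line 1.2 replicate 1, and H2-Eb1 lost its call with DESeq2, in the 4 DMSO libraries alone and without any single library. The list had 2 higher genes without line 1.1 replicate 1 or line 1.2 replicate 1, 3 without line 1.2 replicate 2, and a median of 0.53 in that last case. The 4 DMSO libraries alone gave 2 higher genes. With a filter of at least 5 CPM in at least 2 libraries the list had 3 higher genes and a median of 0.15. With no filter on low counts the median was 0.52. The myeloid markers Csf1r, Lyz2, Adgre1, Cd14, S100a8 and Mpo summed to 0.152 to 0.191 CPM in line 1.1 and 0.331 to 0.812 CPM in line 1.2, none passed the filter and 3 had no read. Their part in the class II difference was not tested.

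Among checkpoint and costimulatory ligands and receptors, which regulate T and NK cells, 2 of 18 were higher and 2 lower. The share called was 22.2%, against 6.77% of all genes. Pvr, a ligand of the receptors DNAM-1 and TIGIT (chromosome 7, 19903578 to 19921160), had 4.03 and 3.16 CPM in line 1.1 (53 and 33 reads) and no read in line 1.2, at least 27.7-fold lower against a floor of 3 reads over the group (edgeR adjusted p = 8.87e-08). Ulbp1, a ligand of the activating receptor NKG2D, was higher (0.67 ± 0.12), and so was the inhibitory receptor gene Btla (0.46 ± 0.10), except with DESeq2 or without line 1.2 replicate 2. Lgals9, which encodes galectin-9, was lower (-0.18 ± 0.053), a call lost with DESeq2, in the 4 DMSO libraries alone and without any one of line 1.1 replicate 2, line 1.2 replicate 1 and line 1.2 replicate 2. Cd274, which encodes PD-L1, had 1.44 and 1.63 CPM in line 1.1 and 2.26 and 3.31 CPM in line 1.2. Its libraries did not overlap, as in 46.8% of all genes tested, but the difference (0.87 ± 0.31) missed the threshold (edgeR adjusted p = 0.0923). The list had 1 higher gene without line 1.2 replicate 2, and 1 lower gene without any one of line 1.1 replicate 2, line 1.2 replicate 1 and line 1.2 replicate 2.

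Of 26 genes of homing, 3 were higher and 2 lower (19.2%, against 6.77% of all genes). S1pr1, the receptor for exit from lymphoid tissue, was higher (0.42 ± 0.084), but not with DESeq2. Itga4, an integrin chain of adhesion in the bone marrow, was lower (-0.22 ± 0.049), but not without line 1.2 replicate 2. Without that library the list had 0 lower genes, and without line 1.1 replicate 2 or line 1.2 replicate 1 it had 1.

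Genes of cholesterol synthesis were higher in line 1.2. Of 24 tested, 12 were called higher and 0 lower (50.0%, against 6.77% of all genes), with a median of 0.24. Stard4, a sterol carrier, had 108 and 96.2 CPM in line 1.1 and 138 and 145 CPM in line 1.2 (0.47 ± 0.068, edgeR adjusted p = 4.41e-05), and Sqle, the squalene epoxidase gene, had 124 and 108 against 144 and 143 CPM (0.30 ± 0.059). The sterol sensor gene Insig1 (0.28 ± 0.060) and Cyp51, the lanosterol demethylase gene (0.25 ± 0.054), were higher too, though not without line 1.2 replicate 2. The levels of these 4 genes did not overlap between lines, as in 838 of all 840 called genes and 46.8% of all genes tested. The number of calls fell to 5 without line 1.2 replicate 1 and to 3 without its replicate 2, while the median then stayed at 0.24 and 0.23.

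For glycolysis and hypoxia genes, 7 of 26 were higher and 0 lower (26.9%, against 6.77% of all genes), with a median of 0.09. The higher ones were led by Egln3, an oxygen-sensing hydroxylase, at 1.06 and 1.43 CPM in line 1.1 and 5.96 and 5.13 CPM in line 1.2 (2.16 ± 0.31). Ankrd37 had 38.7 and 57.2 CPM against 81.7 and 82.0 CPM (0.79 ± 0.13), a call lost with DESeq2, Slc2a1, the glucose transporter gene, had 57.3 and 63.2 against 80.6 and 79.2 CPM (0.41 ± 0.076), and Ero1l, an oxidase of protein folding, 181 and 207 against 256 and 265 CPM (0.43 ± 0.069). Replicate 1 of line 1.1 was the lowest of the 4 libraries in each of these genes. Without it, 5 genes of the list were higher and 4 lower, with a median of -0.004, and without line 1.1 replicate 2, 10 were higher and 0 lower, with a median of 0.20. Without line 1.2 replicate 2 the list had 4 higher genes.

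Ribosomal protein genes were slightly higher in line 1.2, with a median of 0.11. Of 85 tested, 26 were called higher and 0 lower (30.6%, against 6.77% of all genes). Rps27a had 984 and 846 CPM in line 1.1 and 1129 and 1119 CPM in line 1.2 (0.30 ± 0.057), a call lost with DESeq2, and Rpl22 had 477 and 436 against 558 and 543 CPM (0.27 ± 0.052). The number of calls moved from 39 without line 1.1 replicate 1 to 12 without its replicate 2, 5 without line 1.2 replicate 1 and 8 without line 1.2 replicate 2, and the median from 0.09 to 0.14, with 1 lower gene in the first case. The 4 DMSO libraries alone gave 10. Of 15 mitochondrially encoded genes, 0 were higher and 5 lower (33.3%, against 6.77% of all genes), with a median of -0.11. All 5 encode subunits of respiratory complex I, led by mt-Nd1, with 5845 and 6035 CPM in line 1.1 and 5115 and 4848 CPM in line 1.2 (-0.25 ± 0.044, edgeR adjusted p = 0.000478). The number of lower mitochondrial genes was 8 without line 1.1 replicate 1, with 1 higher gene, and 1 without line 1.2 replicate 2.

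**Figure D4:**
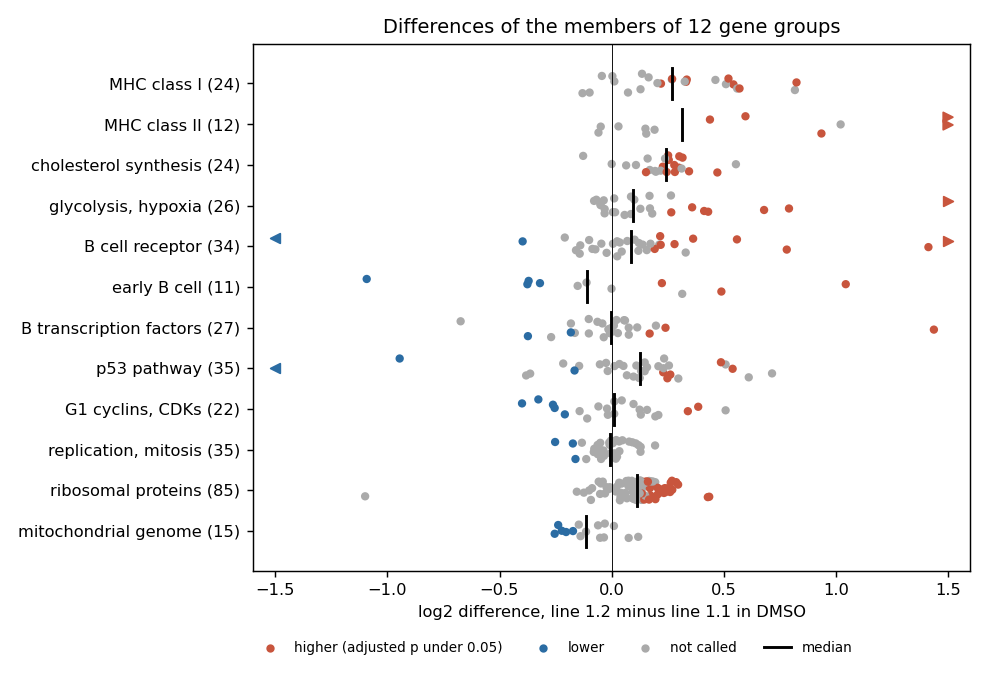
Each point is 1 tested gene of 12 groups, with the log2 difference of line 1.2 minus line 1.1 in DMSO on the x axis; the number of tested genes is given in brackets, black bars are group medians, and triangles at the edges are 6 genes beyond ±1.5. The medians of MHC class II (0.31), MHC class I (0.27) and cholesterol synthesis (0.24) lie to the right of 0 and those of the mitochondrial genome (-0.11) and early B cell genes (-0.11) to the left.

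Along the genome, chromosome medians lay between -0.02 and 0.03 for the autosomes and X, and the share of called genes was between 5.52% (chromosome 1) and 8.87% (X). The share over all genes tested was 6.77%. The mitochondrial genome stood apart with 5 of 21 genes called (23.8%), all lower, and a median of -0.05. The Y chromosome had a median of 0.18 over 8 genes, of which 0 were called. Among 11801 windows of 25 neighbouring tested genes, the middle 90% had medians from -0.06 to 0.08. The highest that did not overlap was the kappa region (chromosome 6, 67238176 to 70726966, median 1.17, 13 genes higher), which holds kappa genes already counted above. It was followed by a stretch of chromosome 1 from 82724890 to 85645037 (median 0.36). In that stretch 6 genes were higher and 0 lower, led by C130026I21Rik, with 12.8 and 13.7 CPM in line 1.1 and 26.5 and 26.5 CPM in line 1.2 (1.01 ± 0.10). The stretch holds repeated copies of related genes, so their values are uncertain where copies share reads. Its median in the JQ1 libraries was 0.35, and that of the kappa region was 1.58. The third highest window, on chromosome 7 from 127893063 to 131394482, had a median of 0.19 with 0 genes called, and -0.0005 in the JQ1 libraries. The lowest window lay on chromosome 1 from 151571186 to 154884501 (median -0.18, 4 genes lower, median in the JQ1 libraries -0.14). It held Edem3, which takes part in the disposal of misfolded glycoproteins, with 360 and 349 CPM in line 1.1 and 259 and 249 CPM in line 1.2 (-0.48 ± 0.048, edgeR adjusted p = 1.5e-07). Next lowest were chromosome 17 from 34931253 to 35253707 (median -0.16, 1 higher, 5 lower) and chromosome 5 from 135149657 to 136883209 (-0.13, 0 higher, 3 lower). Their medians in the JQ1 libraries were -0.015 and 0.005.

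The same lines can be compared in their JQ1 libraries, which share no library with the DMSO comparison but come from the same fit. There, 795 of 12413 genes (6.40%) differed between lines. Of the 840 genes called in DMSO, 337 were called in the same direction in JQ1 (40.1% of the DMSO calls and 42.4% of the JQ1 calls) and 4 in the opposite direction. The sign of the difference was the same for 783 of the 840 (93.2%), against 64.0% over all genes tested. Of the 150 genes with at least a 2-fold difference, 94 were called in the same direction and 140 had the same sign. Bcl2l2, above, was one that did not. Bcl2 (2.59), Igkc (1.53), Igkv3-4 (2.10), Ebf3 (2.08), Rag1 (-0.95), Cd6 (-3.51), Pvr (-6.17), Nlrc5 (0.63), Cd74 (1.06) and Stard4 (0.56) were called in JQ1 as well, while Il7r (-0.16, adjusted p = 0.662), Cd93 (0.20, adjusted p = 0.34) and Ccnd3 (-0.13, adjusted p = 0.171) were not. A test of the change in line difference between DMSO and JQ1 called 14 genes, 8 of which were called in DMSO, so for the other genes a call in one set of libraries alone does not show a difference between the sets.

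**Figure D5:**
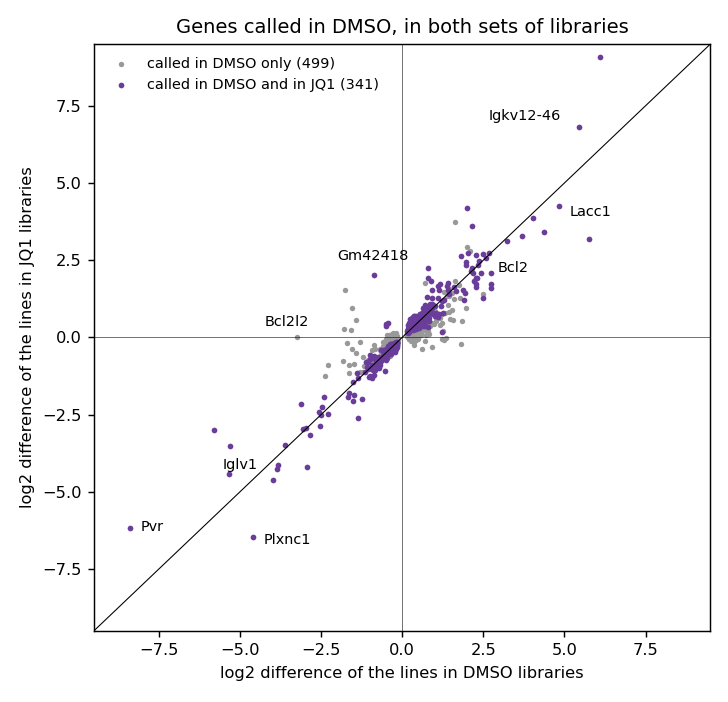
Each point is 1 of the 840 genes called in DMSO, with its log2 difference of line 1.2 minus line 1.1 in DMSO libraries on the x axis and in JQ1 libraries on the y axis; the diagonal marks equal differences. Purple points, 341 genes, were also called in JQ1, and 337 of these lie on the same side in both. The differences of Igkv12-46, Bcl2, Plxnc1 and Pvr are among them, while Bcl2l2 (-3.25 in DMSO) lies at 0.03 in JQ1.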

How the data were processed

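The authors deposited raw read counts by Ensembl gene identifier. The submitters' processing notes name the GRCm38 (mm10) build and the tools cutadapt 1.7, FastQC, Bowtie2, TopHat, limma and HTSeq. The strand setting and annotation release were not given in the sources used here, so reads of overlapping genes cannot be told apart by strand. Summary lines that name no gene entered neither library sizes nor tests. In the DMSO libraries reads assigned to no gene were 12.3 to 13.1% and ambiguous reads 1.54 to 1.60% of all reads in the file. Of 43629 identifiers, 42462 were matched to GENCODE mouse release M21.

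In R 4.3.3, edgeR 4.0.16 fitted 4 group means to all 8 libraries (TMM scaling, filterByExpr with its defaults of 10 reads as minimum count and 15 as minimum total), which left 4 residual degrees of freedom. The contrast of line 1.2 minus line 1.1 in DMSO was tested with the quasi-likelihood F test, two-sided, with Benjamini-Hochberg adjustment over all 12413 genes. Standard errors (SE) come from the F statistic. All adjusted p-values are from this test unless another tool is named. The fit was also run on counts simulated from its own model, which cannot show how well that model describes these libraries. V gene shares have exact (Clopper-Pearson) 95% intervals.

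Named genes were the 15 largest rises and 15 largest falls among called genes averaging 5 CPM or more in the higher line, without overlap between lines and with a symbol that is no clone or pseudogene; the 8 called genes each way with the largest difference in CPM per kb; up to 4 called members of each list with the smallest p and at least 1 CPM in the higher line; up to 3 called genes of each window; and a fixed set including Myc, Cd274, Trp53 and Bcl2. Malat1, Cd79a, Cd79b, Vpreb1, Vpreb3, Igll1, Dntt, Mcl1, Bax, Bcl2l11, Mdm2, Cdkn1a, Mtap, Plk2, H2-Aa, Ppp1r1c and the heavy chain V genes fall outside this rule and were chosen after their values were seen. A few genes chosen by this rule are left unreported. The members, lists and this rule were chosen with earlier results of these data known. Alternatives were scaling by library totals, upper quartile or DESeq2 size factors, the Wald test of DESeq2 1.42.0, limma-voom (limma 3.58.1), no filter on low counts, a filter of at least 5 CPM in at least 2 libraries, a fit of the 4 DMSO libraries, a replicate block, each DMSO library left out, a threshold of 0.01 and a test that the change exceeds 1.5-fold.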

Additional observations from a re-analysis of the deposited data

Results flagged for a closer look

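For 5 of the named genes the difference between the lines itself differed between DMSO and JQ1 libraries, by the interaction term of the edgeR fit. The values below are the line difference in JQ1 minus that in DMSO on the log2 scale. Plxnc1 was at -1.85 (adjusted p = 8.39e-07), with line differences of -4.60 in DMSO and -6.45 in JQ1. Iglv1 was at -0.63 (adjusted p = 0.0233), with -3.99 and -4.62. Ankrd37 was at 1.13 (adjusted p = 0.042), with 0.79 and 1.92. Gm24245, which GENCODE classes as a miRNA, was at 0.85 (adjusted p = 0.042), with -0.49 and 0.36. Gm42418 was at 2.91 (adjusted p = 0.000378), with -0.88 and 2.03, and its level in DMSO was set apart by replicate 2 of line 1.1.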

How the results depend on the processing

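No named gene that was called changed its direction under any alternative. The 840 called genes (446 higher, 394 lower) became 303 (157 and 146) with DESeq2's Wald test, 445 (263 and 182) in a fit of the 4 DMSO libraries alone, 87 (56 and 31) when tested against a 1.5-fold change and 376 (217 and 159) at a threshold of 0.01. With 1 DMSO library left out the count ranged from 313 to 1318 (189 to 590 higher, 124 to 728 lower). Where a library was left out, its group held 1 library, which was assumed to vary like the other groups. The share of called genes that were higher in line 1.2 was 53.1%, 60.2% with library totals as scaling, 59.1% in the 4 DMSO libraries, 64.4% against a 1.5-fold change and 44.8% to 60.4% with a library left out. The other scalings, limma-voom and both filters gave 774 to 970 calls. The 2 libraries of each group carry the numbers 1 and 2, but same-numbered libraries did not deviate together (Pearson correlations of their deviations from the group means from -0.10 to 0.06), so the numbers were not taken to pair them. With a replicate block, 872 genes were called (470 higher, 402 lower), 814 of them among the 840. Of 147 called named genes, 39 kept their call under every alternative in which they were tested, 47 lost it with DESeq2 and 67 when some library was left out.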

Other observations

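Ppp1r1c, which encodes a regulatory subunit of protein phosphatase 1 and was named after its values were seen, had 0 reads in line 1.1 and 17 in line 1.2, at least 5.81-fold higher against a floor of 3 reads over the group. The Delta-like gene Dlk1 and Igf2r, the receptor that clears IGF2, 2 imprinted genes, were called higher in line 1.2. Dlk1 had 49.3 and 57.8 CPM in line 1.1 and 95.6 and 84.4 CPM in line 1.2 (0.76 ± 0.073, edgeR adjusted p = 8.82e-08). Igf2r had 7.22 and 10.2 CPM against 15.3 and 15.2 CPM (0.83 ± 0.14). Of 11 imprinted genes tested, 2 were higher and 1 lower, with a median of 0.01 (3 and 2 without line 1.1 replicate 2, and 0 lower without line 1.2 replicate 1). Of 12 germinal centre and plasma cell genes tested, 1 was higher and 1 lower, with a median of -0.08 (1 and 2 without line 1.1 replicate 1, 2 and 1 without line 1.1 replicate 2). The higher one was the receptor gene Tnfrsf13b (0.24 ± 0.068), whose call was lost with DESeq2, in the 4 DMSO libraries alone and without any one of line 1.1 replicate 1, line 1.2 replicate 1 and line 1.2 replicate 2. The lower one was the syndecan gene Sdc1, which had 19.3 and 17.6 CPM in line 1.1 and 10.7 and 12.1 CPM in line 1.2 (-0.70 ± 0.12). Calls made up 27.3% of the imprinted genes and 16.7% of the germinal centre and plasma cell genes, against 6.77% of all genes. Dusp5, a phosphatase of ERK, had 48.9 and 45.1 CPM against 28.7 and 28.2 CPM (-0.73 ± 0.081), and the class IIa deacetylase gene Hdac9 had 22.1 and 17.4 CPM against 30.7 and 34.6 CPM (0.71 ± 0.11). The direction of Dlk1, Igf2r, Sdc1, Dusp5 and Hdac9 was the same in the JQ1 libraries. Their DMSO libraries did not overlap between lines, as in 838 of all 840 called genes and 46.8% of all genes tested.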
